A study of Caenorhabditis elegans with 2 samples.

Results

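The tRNA genes on the autosomes of Caenorhabditis elegans were taken as all genes of biotype tRNA on chromosomes I to V in the Ensembl annotation of WBcel235, each with 500 bp on both sides. They numbered 336 of the 612 nuclear tRNA genes, and the other 276 lay on the X chromosome. Chromosome I held 66 of them, II 57, III 64, IV 71 and V 78. They were described by peaks of the nuclear receptor NHR-41, a relative of the vertebrate receptors TR2 and TR4.

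NHR-41 was mapped by chromatin immunoprecipitation and sequencing (ChIP-seq) in 1 group of 2 biological replicates of whole L4 larvae, the last larval stage. The animals, strain RW12221, carried TY1, EGFP and 3xFLAG tags inserted by CRISPR at the endogenous nhr-41 gene on chromosome IV. Cultures were synchronised by bleaching and L1 starvation and aged 48.5 h, and an anti-GFP antibody was used for the precipitation. Both replicates carried the insertion, the strain is 1 edited line, and whole animals pool all tissues. No second genotype or condition was compared, and whether an untagged strain gives peaks at the same genes was not tested.

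Transfer RNAs carry amino acids to the ribosome, and their genes are transcribed by RNA polymerase III. Its promoter lies inside the gene as an A box near the start and a B box further on, which the factor TFIIIC recognises, and transcription ends at a run of T after the gene. Nuclear receptors are better known as regulators of genes transcribed by RNA polymerase II, often through half-sites of the letters AGGTCA. Many C. elegans tRNA genes lie in introns of protein-coding genes, and many have identical copies elsewhere in the genome.

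Gene sequences are shown for 6 of the 12 autosomal loci with the highest signals, to set their internal promoter letters beside the peaks. F52C9.t1 and T21B4.t1, the loci ranked 2 and 4 by signal, are among those not printed. Searched without a mismatch, the box letters were not found in every gene of these loci. Y69A2AR.t2 lacks the exact B box letters, and K11H3.t2, at another of the 12 loci, the exact A box letters. Such a search cannot show that a box itself is missing. Sequences are from the RefSeq WBcel235 genome, in the gene's own direction, and capitals mark the A box letters TNGNNNA (starting at base 7 to 9) and the B box letters GTTCNANNC.
F44A2.t1 (Ala, chrV:9318202-9318273, plus strand): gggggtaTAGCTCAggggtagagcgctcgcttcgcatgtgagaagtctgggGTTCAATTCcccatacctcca
Y69A2AR.t2 (Glu, chrIV:2639809-2639880, minus strand): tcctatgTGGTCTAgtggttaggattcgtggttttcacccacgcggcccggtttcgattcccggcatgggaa
T23F1.t2 (Pro, chrV:15465225-15465296, minus strand): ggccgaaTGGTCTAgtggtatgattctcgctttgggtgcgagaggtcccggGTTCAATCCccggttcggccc
K04C2.t3 (Lys, chrIII:6887728-6887800, minus strand): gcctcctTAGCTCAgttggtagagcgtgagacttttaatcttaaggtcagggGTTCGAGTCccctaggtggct
F15B9.t1 (Ala, chrV:13003509-13003580, minus strand): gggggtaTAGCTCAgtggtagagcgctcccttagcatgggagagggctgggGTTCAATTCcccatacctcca
F57F5.t1 (Ile, chrV:12002176-12002260, plus strand): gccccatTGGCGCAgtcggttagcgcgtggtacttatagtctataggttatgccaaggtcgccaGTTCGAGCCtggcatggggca

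The genes below had no peak within 500 bp in the ranked list of both replicates or in either replicate's own ranked list, and are shown for contrast. F49C5.t1 held both boxes, and R148.t1 held the B box letters and not the A box letters.
F49C5.t1 (Trp, chrII:12539597-12539668, plus strand): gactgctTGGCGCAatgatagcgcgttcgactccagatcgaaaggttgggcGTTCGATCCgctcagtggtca
R148.t1 (Tyr, chrIII:3195439-3195520, plus strand): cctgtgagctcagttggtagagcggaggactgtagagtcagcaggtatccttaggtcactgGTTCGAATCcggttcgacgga

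Of the 336 autosomal tRNA genes, 123 (36.6%, exact 95% interval 31.4 to 42.0) had the summit of a conservative peak within 500 bp. The conservative list is the authors' thresholded list made from both replicates. Among the 40532 other autosomal genes, whose median length was 177 bp against 72 bp for the tRNA genes, 2.76% had one by the same window. These genes are of every other biotype and include hosts and neighbours of tRNA genes, so some are counted through the same summits. A further 166 tRNA genes had a summit only in the ranked list of both replicates, which also holds peaks under the threshold, and 47 had none there. A ranked summit was therefore present at 289 genes, 86.0% (81.8 to 89.5), against 45.9% of the other autosomal genes. These intervals cover counting error only, and read depth was unknown.

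Each replicate alone gave fewer genes, from a shorter list. The thresholded lists held 347 peaks for replicate 1 and 676 for replicate 2, against 1069 in the conservative list. At autosomal tRNA genes lay 28, 58 and 110 of these peaks. The thresholded list of replicate 1 placed a summit at 30 autosomal tRNA genes (8.93%, against 1.06% of the other autosomal genes) and that of replicate 2 at 67 (19.9%, against 1.83%). The lists of the single replicates had 21 of these genes in common, 9 stood only in replicate 1's list and 46 only in replicate 2's. Of the 123 genes with a conservative summit, 54 stood in neither single-replicate list. The ranked list of each replicate, which also holds peaks under the threshold, placed a summit at 275 genes for replicate 1 and at 278 for replicate 2.

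The share with a conservative summit was 37.9% on chromosome I, 42.1% on II, 39.1% on III, 39.4% on IV and 26.9% on V. The intervals of all 5 autosomes overlapped, with chromosome V at 17.5 to 38.2 and chromosome II at 29.1 to 55.9. Chromosomes I and V each held 15 of the 47 genes without a ranked summit, against 4 on II, 6 on III and 7 on IV.

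Because neighbouring genes can share a summit, genes whose 500 bp windows overlapped were joined to loci for tests. The 336 genes formed 281 loci, of which 235 held 1 gene, 39 held 2, 5 held 3 and 2 held 4. A conservative summit was present at 101 of 281 autosomal loci (35.9%) and at 100 of 195 loci on X (51.3%), an odds ratio of 0.53 (95% interval 0.361 to 0.787, adjusted Fisher's exact p = 0.00289, 2-sided, adjusted over 3 tests). Among loci of 1 gene the shares were 75 of 235 (31.9%, 26.0 to 38.3) on the autosomes and 69 of 141 (48.9%, 40.4 to 57.5) on X. With the list of either replicate alone the odds ratio was 0.44, and the difference was called both times. Among genes without an identical copy it was 0.70 and no longer passed (20 of 85 autosomal loci, 15 of 49 on X, adjusted Fisher's exact p = 0.417). All 3 tests treat loci or summits as independent. They rest on the same 2 libraries, and many of the genes have identical copies at other loci, which the p-values and intervals do not take into account.

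**Figure D1:**
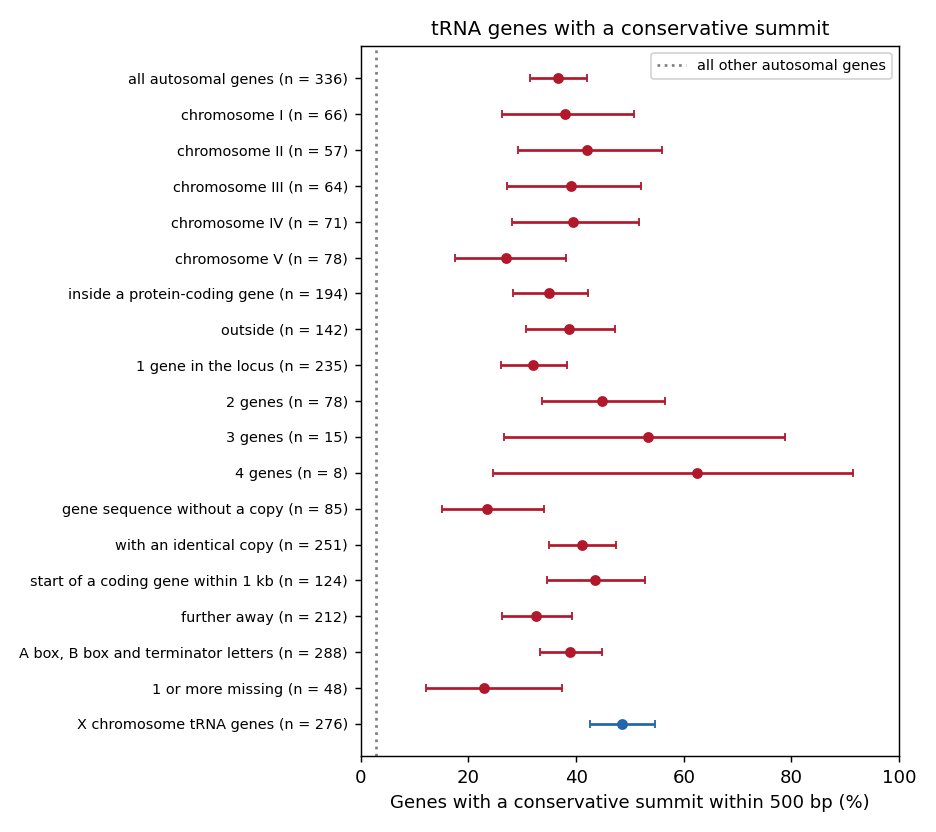
Percentage of tRNA genes with a conservative NHR-41 summit within 500 bp (x axis) by class of gene (y axis, n genes each). Red points are autosomal tRNA genes, the blue point is X, bars are exact 95% intervals, and the dotted line is the 2.76% of the other autosomal genes, which lies below every interval drawn.

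Most of the conservative summits counted lay inside a tRNA gene. The 123 genes shared 110 conservative peaks, since 18 of the peaks had 2 or more tRNA genes within 500 bp and 16 of the genes were not the nearest to any summit. Of the 110 summits, 73 (66.4%, 56.7 to 75.1) lay inside a tRNA gene, 26 upstream of it and 11 downstream. A tRNA gene of median length fills 72 bp between flanks of 500 bp on both sides. On X, 79 of 109 summits (72.5%) lay inside a gene, and this share did not differ detectably (odds ratio 0.75, 95% interval 0.403 to 1.39, adjusted Fisher's exact p = 0.569). The direction of that difference turned round with either replicate's list alone, with 72.4% and 82.1% of autosomal summits inside.

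Measured in the direction of transcription from the first base of the nearest tRNA gene, the median autosomal summit lay at 22 bp (quartiles 0.25 and 49.8), against 26 bp (4 and 41) on X. The summits reached from 233 bp upstream of the gene start to 446 bp after it, and 106 of 110 lay within 100 bp of the gene. The fullest 25 bp bin was bases 0 to 24, with 34 autosomal summits, while on X it was bases 25 to 49, with 38. Of 102 autosomal summits at genes with both boxes, 63 were nearer to the A box and 38 nearer to the B box. Over all 102 the median distance was 30.5 bp to the A box centre and 37 bp to the B box centre. All 110 peaks were 284 bp wide with the summit 142 bp from the start, so the summit was the midpoint of a peak of fixed width and places the signal no finer than the peak caller did. The same width held for 1043 of the 1069 conservative peaks.

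Ranked peaks under the threshold at autosomal tRNA genes were spread more widely, as a description. Of these 224 peaks, 77 (34.4%, 28.2 to 40.99) lay inside a tRNA gene and 147 (65.6%) within 100 bp of one, with a median position of 31.5 bp. The furthest conservative summit counted lay 363 bp from the nearest tRNA gene, and the nearest one left out lay at 610 bp. In all, 108 autosomal conservative summits were at most 200 bp from a tRNA gene, 2 were further and up to 500 bp away, and 3 lay beyond 500 and up to 1000 bp.

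**Figure D2:**
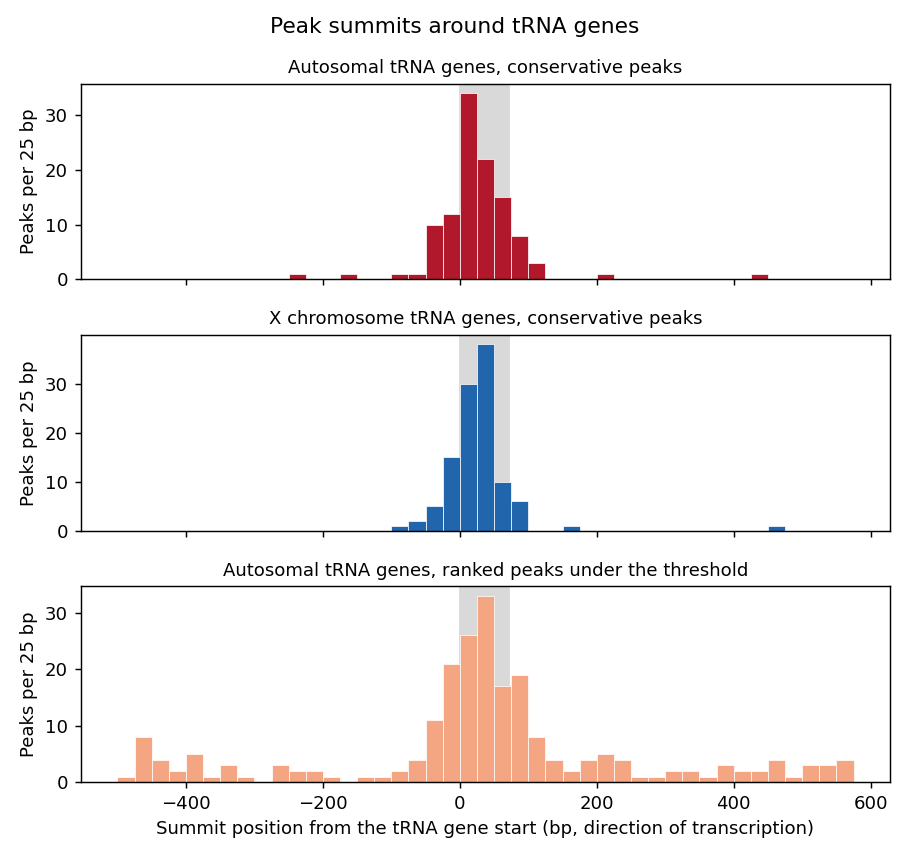
Summit positions from the tRNA gene start in 25 bp bins (x axis, bp in the direction of transcription) and number of peaks (y axis), with the median gene length of 72 bp in grey. Conservative summits on the autosomes (top, 110) and on X (middle, 109) crowd over the gene, while the 224 ranked peaks under the threshold (bottom) have longer tails.

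The strongest peak stood at F44A2.t1, an alanine tRNA gene with no identical copy, 38 bp from the start of a protein-coding gene. Its signal, the peak caller's own value, was 167 in the conservative list, rank 37 of 1069. It was 80.0 in replicate 1 and 85.3 in replicate 2 (82.7 ± 3.78, SD, n = 2). The whole peak of 284 bases, chrV:9318088-9318371 on the plus strand, is printed with the tRNA gene in capitals (bases 115 to 186), and the summit falls on base 143, inside the gene.
F44A2.t1 peak: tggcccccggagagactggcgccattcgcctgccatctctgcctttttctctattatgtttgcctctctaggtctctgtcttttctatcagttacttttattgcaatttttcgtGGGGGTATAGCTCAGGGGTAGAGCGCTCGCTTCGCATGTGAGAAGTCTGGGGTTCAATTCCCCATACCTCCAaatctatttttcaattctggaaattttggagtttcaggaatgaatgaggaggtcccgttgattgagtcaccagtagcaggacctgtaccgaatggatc

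The 12 autosomal loci with the highest signals carried tRNAs for 9 amino acids, and 8 of them lay in a protein-coding gene. All 12 had the top score of 1000, 9 stood in the list of replicate 1 alone and 11 in that of replicate 2 alone. F52C9.t1 (Thr), in an intron of F52C9.5 on chromosome III, had a conservative signal of 160, with 62.4 in replicate 1 and 92.1 in replicate 2. Y69A2AR.t2 (Glu), which overlaps an exon of mdf-2, a spindle checkpoint gene, had 145, with 89.5 and 50.3. Its locus was the 1 of the 12 that replicate 2's thresholded list missed, and the printed sequence of the gene does not hold the B box letters. T21B4.t1 (Ile), in an intron of the collagen gene col-85 on chromosome II, had 141.04, with 60.2 in replicate 1 and 81.2 in replicate 2.

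Next came neighbours and intronic genes. T23F1.t1 (Lys) and T23F1.t2 (Pro), which converge from opposite strands of chromosome V outside any protein-coding gene, shared a summit of 130, with 63.3 in replicate 1 and 82.8 in replicate 2. K04C2.t3 (Lys), in an intron of brd-1, the relative of the BRCA1 partner BARD1, had 127, with 49.2 and 74.5. F15B9.t1 (Ala), in an intron of the formin gene inft-2, had 125, with 69.1 and 50.1. B0523.t1 (Trp), in an intron of fli-1, the relative of fly flightless, had 118, with 56.5 and 59.2. Y82E9BR.t1 (Gly), in an intron of lelo-2, had 114, with 32.2 and 80.9, the widest gap among the 12 loci.

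The last of the 12 loci had signals of 111 to 110. The serine genes K11H3.t2 and K11H3.t1, in introns of the potassium channel gene twk-48, shared a peak of 111, with 48.8 in replicate 1 and 63.0 in replicate 2. F57F5.t1 (Ile), a gene of 2 exons outside protein-coding genes, had 110, with 36.1 and 70.2. W09G10.t3 (Thr) and W09G10.t2 (Lys) shared a peak of 110, with 38.6 and 65.7. On chromosome I the highest was F14B4.t1 (Arg) in an intron of F14B4.1, with 108, and with 39.97 in replicate 1 and 63.7 in replicate 2. Replicate 2 was the higher at 10 of the 12 loci and replicate 1 at 2, Y69A2AR.t2 and F15B9.t1.

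As a set the autosomal tRNA peaks had a signal close to that of the rest of the conservative list. Their median signal was 82.9 (quartiles 70.3 and 95.7, range 3.25 to 167), beside 89.8 (77.9 and 106, highest 247) at X tRNA genes and 81.6 (69.3 and 99.8, highest 318) at the 850 peaks away from tRNA genes. The top score of 1000 was reached by 80 of 110 (72.7%), 93 of 109 (85.3%) and 608 of 850 (71.5%) of these peaks. They made up 110 of 1069 conservative peaks (10.3%), but 6 of the 106 with the highest signals (5.66%, 2.11 to 11.9). By chromosome their median signal stayed between 81.4 on IV and 85.6 on II. Summits inside a gene had a median signal of 83.8, those upstream 80.9 and those downstream 67.4. The 4 peaks with a signal under 50 shared both replicate peaks with a stronger neighbour: with 1 peak kept per pair, 106 peaks were left and the lowest signal was 52.8.

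The replicates gave a similar level and a loose order. Among the 251 autosomal tRNA genes with a peak in both replicates' own ranked lists, the strongest peak had a median signal of 35.6 in replicate 2 and 30.2 in replicate 1, a median log2 difference of 0.20 (quartiles -0.11 and 0.63, replicate 2 over replicate 1). Replicate 2 was higher at 163 of the 251 genes (64.9%). Across these genes the replicates' signals correlated with a Pearson r of 0.526 and with a Spearman rho of 0.4996, as a description over genes that share 2 libraries. Across the 110 conservative peaks the 2 unnumbered replicate signals of the ranked list had a rho of 0.142, against 0.255 at X tRNA peaks and 0.337 at the 850 others. The threshold that selected these peaks uses their ranks in both replicates. The second of the unnumbered signals was higher at 79 of 110 autosomal tRNA peaks (71.8%) and at 665 of the 850 peaks away from tRNA genes (78.2%). At the 12 strongest loci the SD between replicates (n = 2) ran from 1.92 at B0523.t1 to 34.4 at Y82E9BR.t1, so neighbours in their order do not differ beyond the spread.

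**Figure D3:**
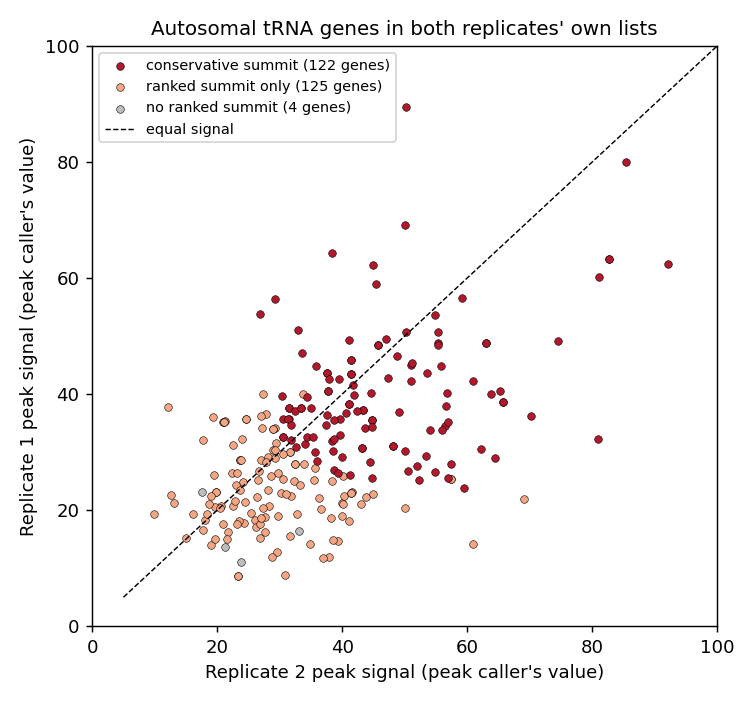
Peak signal of each autosomal tRNA gene in replicate 2 (x axis) and replicate 1 (y axis), for 251 genes listed in both replicates' own ranked lists. Genes with a conservative summit (red) lie towards high values in both, genes with only a ranked summit (orange) lie lower, and most points fall below the dashed line of equal signal.

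All 20 standard isotypes had genes with and genes without a conservative summit. Among isotypes with 10 or more autosomal genes the share was highest for glutamate, with 10 of 18 (55.6%, 30.8 to 78.5), lysine, with 15 of 28 (53.6%, 33.9 to 72.5), and leucine and threonine, with 11 of 22 and 10 of 20. It was lowest for valine, with 3 of 17 (17.6%, 3.80 to 43.4), histidine, with 2 of 11 (18.2%, 2.28 to 51.8), and proline, with 5 of 22 (22.7%, 7.82 to 45.4). Glycine, the largest group, had 14 of 35 (interval 23.9 to 57.9). These intervals overlap one another, and differences between isotypes were not tested.

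**Figure D4:**
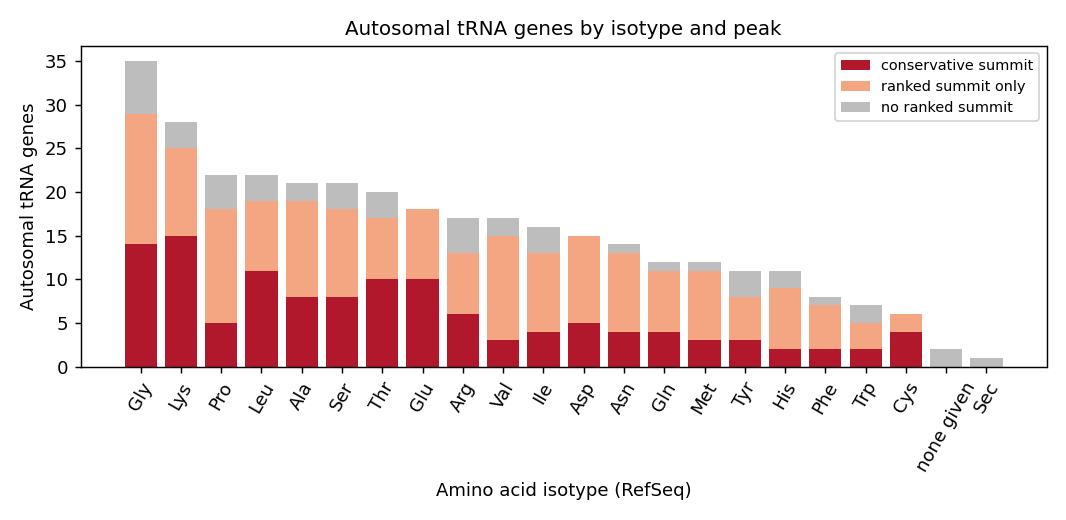
Number of autosomal tRNA genes (y axis) by amino acid isotype (x axis), split into genes with a conservative summit, genes with only a ranked summit and genes with neither. Glycine is the largest group with 35 genes, and all 20 standard isotypes have at least 1 red segment.

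Copies of the same gene sequence often differed in whether they had a summit. The 336 genes held 137 different sequences, and 43 of these occurred at 2 or more autosomal genes. In 32 of the 43 groups some copies had a conservative summit and others had none, in 7 no copy had one and in 4 all had one. Of 23 groups with 5 or more autosomal copies, 22 were mixed. With 36.6% of all autosomal tRNA genes having a conservative summit, most large groups would be mixed whatever their sequence. Whether these groups differ from that was not tested. The largest, a glycine gene of 18 autosomal copies, had 9 with a conservative summit and a ranked signal in all 18, from 38.2 to 114 with a median of 64.3. A lysine gene of 15 copies had 9 with a conservative summit, and an asparagine gene of 13 copies had 4.

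The threonine sequence of F52C9.t1 had 5 autosomal copies, and F52C9.t1, with a signal of 160, was the 1 copy with a conservative summit. The other copies with a ranked summit were F45G2.t1, C53D6.t1 and ZK262.t1, with 38.5, 48.3 and 47.1, and T04D3.t4 had none. Their values had been seen when these genes, and the alanine and valine genes that follow, were chosen. A valine gene of 8 copies had a conservative summit at 1 copy, F22G12.t1 with 92.1, and ranked signals down to 31.2 at the others.

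The alanine genes form separate sequences with different counts. The sequence of F15B9.t1 occurred at 8 autosomal genes, of which 6 had a conservative summit, with ranked signals from 29.3 to 125. Another alanine sequence, that of B0491.t2, occurred at 5 autosomal genes, none with a conservative summit and 4 with a ranked signal, from 29.8 to 52.3. B0491.t2 differs from F15B9.t1 at 7 of 72 bases and from F44A2.t1, which carries the strongest autosomal peak, at 3. Its A box letters are the same as those of both genes and its B box letters differ from theirs, as the capitals show. The G after GTTC also stands in K04C2.t3 (signal 127) and F57F5.t1 (110), and in F49C5.t1 and R148.t1, which had no peak. T23F1.t2 (130) has an A there, and the part of this base was not tested.
B0491.t2 (Ala, chrII:11334013-11334084, minus strand): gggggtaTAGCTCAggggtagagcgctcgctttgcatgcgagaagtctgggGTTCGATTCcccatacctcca

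**Figure D5:**
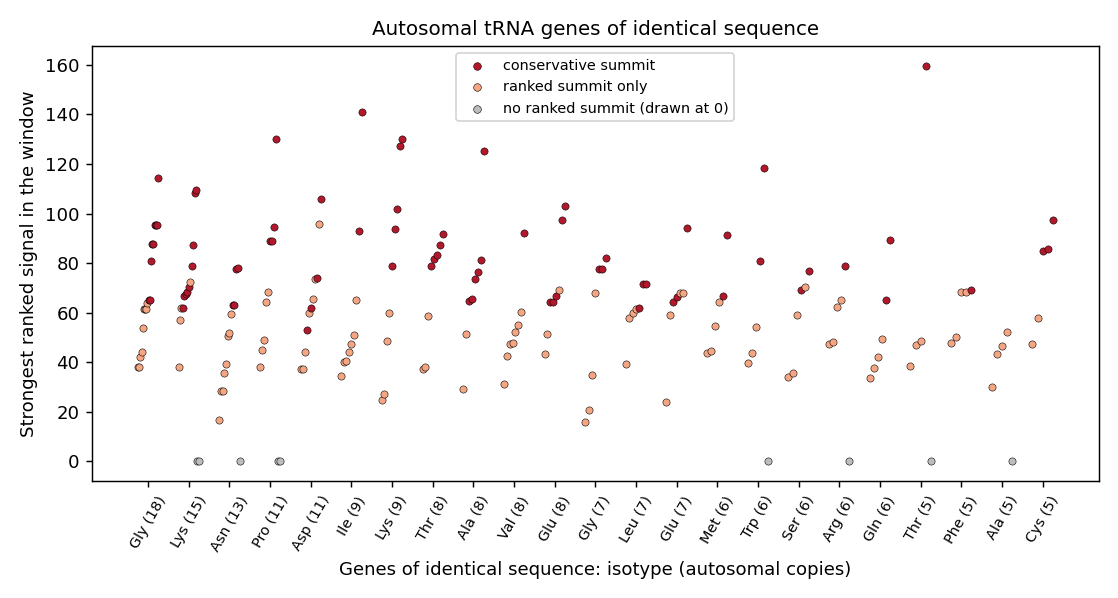
Strongest ranked signal in the window (y axis) of every autosomal tRNA gene in the 23 groups of identical sequence with 5 or more copies (x axis, isotype and number of copies). Red points have a conservative summit, orange points only a ranked one and grey points, drawn at 0, neither. In 22 groups copies of the same sequence carry both red and other points, beside a share of 36.6% red among all autosomal tRNA genes.

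Genes were also split by whether their sequence had an identical copy in the genome. A conservative summit was present at 20 of 85 autosomal genes without a copy (23.5%, 15 to 34.0) and at 103 of 251 genes with one (41.04%, 34.9 to 47.4), a difference that was not tested. On X the shares were 18 of 55 (32.7%, 20.7 to 46.7) and 116 of 221 (52.5%, 45.7 to 59.2). Of the 47 autosomal genes without a ranked summit, 26 had no identical copy. The median signal of the peaks was 84.2 at genes without a copy (20 peaks) and 81.9 at genes with one (90 peaks). The placement of reads that match several copies was not given in the sources used here, and its part in these shares was not tested.

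The sequence elements that RNA polymerase III uses were present at nearly all members. The B box letters were found in 319 of 336 genes (94.9%) and in 5 of 336 stretches of the same length 500 bp upstream (1.49%), read on the gene's strand. The A box letters were found in 306 genes (91.1%) and 21 such stretches (6.25%). A run of TTTT occurred within 25 bp after the gene at 331 genes (98.5%), and at 85 (25.3%) in 25 bp starting 200 bp further on. All 3 elements were present at 112 of 123 genes with a conservative summit (91.1%, 84.6 to 95.5), at 144 of 166 with only a ranked summit (86.7%, 80.6 to 91.5) and at 32 of 47 with neither (68.1%, 52.9 to 80.9). Read the other way, a conservative summit was present at 112 of 288 genes with the letters of all 3 elements (38.9%, 33.2 to 44.8). It was present at 11 of 48 genes where the exact letters of at least 1 were not found (22.9%, 12.03 to 37.3). Among genes without an identical copy these shares were 16 of 59 (27.1%, 16.4 to 40.3) and 4 of 26 (15.4%, 4.36 to 34.9).

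The nuclear receptor half-site letters stood at about the same share of these peaks as of the other conservative peaks, and the GATA letters at a smaller share. Within 75 bp of the summit, on either strand, AGGTCA occurred at 12 of 110 autosomal tRNA peaks (10.9%, 5.77 to 18.3), at 10 of 109 X tRNA peaks (9.17%), at 87 of 850 peaks away from tRNA genes (10.2%) and at 4.66% of all 48276 ranked peaks. TGATAA, the core of GATA factor sites, occurred at 12 of 110 autosomal tRNA peaks (10.9%, 5.77 to 18.3), 13 of 109 X tRNA peaks (11.9%), 218 of 850 peaks away from tRNA genes (25.6%, 22.7 to 28.7) and 13.1% of all ranked peaks. The B box letters GTTCNANNC were at 88 of 110 (80.0%), 91 of 109 (83.5%), 92 of 850 (10.8%) and 6.70%. The tRNA peaks were selected for lying at tRNA genes, and 94.9% of the autosomal ones hold these letters. The B box contrast is therefore built in by that selection. All of these are counts of letters, not of sites, and they were not tested. The stretch searched can cover the tRNA gene itself. AGGTCA also stands inside the printed sequences of K04C2.t3 and of R148.t1, which had no peak. How often it stands in tRNA genes without a peak was not counted.

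Lying inside a protein-coding gene made no detectable difference. A conservative summit was present at 55 of 162 loci whose tRNA genes all lay inside one (34.0%) and at 41 of 112 loci outside (36.6%), an odds ratio of 0.89 (95% interval 0.522 to 1.52, adjusted Fisher's exact p = 0.6998). A further 7 loci held genes of both kinds and were left out. With the list of replicate 2 or of replicate 1 alone the odds ratio was 1.05 and 1.08, on the other side of 1 and also not called. By gene, a summit was present at 41 of 110 in an intron on the host's strand (37.3%, 28.2 to 47.0), 25 of 77 in an intron on the opposite strand (32.5%, 22.2 to 44.1) and 55 of 142 outside (38.7%, 30.7 to 47.3).

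The 194 tRNA genes inside protein-coding genes had 158 hosts, of which 6 held 3 tRNA genes. The 4 of these with the highest ranked signals differed in their counts. In spe-9, which encodes a sperm surface protein needed for fertilization, all 3 genes (C17D12.t1 to t3) had a conservative summit within 500 bp, with signals of 68.2 at t1 and 62.0 at t2. The only one for t3 was that of its neighbour t2, 579 bp from the start of t3, and the peak nearest to t3 in replicate 1's own ranked list had a signal of 18.7. In pxn-1, a peroxidasin gene, ZK994.t1 and ZK994.t3 had one, with 78.6 and 81.7, and ZK994.t2 had a ranked signal of 48.4. In brd-1, K04C2.t3 had one and the glycine genes K04C2.t2 and K04C2.t1 shared a ranked signal of 38.2. In srv-16, a serpentine receptor gene, all 3 (Y105C5B.t1 to t3) had only ranked peaks, of 59.9 and 67.9. In pash-1, the partner of Drosha in microRNA processing, the 3 glycine genes T22A3.t2 to t4 had no ranked peak, and this host was chosen after its values were seen.

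Shares were also counted by distance to the start of the nearest protein-coding gene, without a test. A conservative summit was present at 54 of 124 tRNA genes within 1000 bp of such a start (43.5%, 34.7 to 52.7) and at 69 of 212 further away (32.5%, 26.3 to 39.3). Beyond 5000 bp it was present at 10 of 45 (22.2%, 11.2 to 37.1). Of the 110 autosomal tRNA summits, 46 (41.8%, 32.5 to 51.6) lay within 1000 bp of a protein-coding start, beside 26 of 109 (23.9%, 16.2 to 33.0) X tRNA summits and 407 of 850 (47.9%) summits away from tRNA genes. Of all 336 autosomal tRNA genes, with or without a summit, 124 (36.9%, 31.7 to 42.3) lay that near, measured from the gene. The same share over all X tRNA genes was not counted.

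In clusters of tRNA genes the state could differ from gene to gene. The share of genes with a conservative summit was 75 of 235 (31.9%) in loci of 1 gene, 35 of 78 (44.9%) in loci of 2, 8 of 15 (53.3%) in loci of 3 and 5 of 8 (62.5%) in loci of 4. A locus with more genes also covers more sequence and lets genes share a summit. In the locus Y65A5A.t1 to t4 on chromosome IV, the alanine genes t1 and t2 had 73.7 and 76.2 and the histidine gene t4 had 63.9, while the valine gene t3 had a ranked signal of 52.0. In the locus of 4 glycine genes of identical sequence on chromosome I, C12C8.t4 and C12C8.t3 shared a summit of 95.4 and C12C8.t5 and C12C8.t2 a ranked signal of 61.4.

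Of the loci of 3 genes named for their size, F08G5.t1 to t3 on chromosome IV had a conservative summit at every gene, of 78.8 for the arginine gene t1 and 89.4 shared by the glutamine genes t2 and t3. The genes of C17D12 in spe-9 were counted likewise, with t3 counted through the summit of t2. In Y53C10A, 3 glutamate genes of identical sequence within 2 kb on chromosome I, Y53C10A.t2 had a conservative summit of 103 and Y53C10A.t1 and Y53C10A.t3 had ranked signals of 51.3 and 43.4. K04C2 in brd-1 had 1 of 3.

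At 3 of the 4 strongest loci under the threshold the peak was uneven between replicates. The threshold uses ranks in both replicates, so choosing strong peaks that fail it partly builds this unevenness in. The 166 genes with only a ranked summit had a median signal of 47.3 (15.9 to 95.9), against 83.3 at the 123 genes with a conservative one, and a median score of 279.5 with the highest at 829. F28F8.t3 (Asp), in an intron of the acetylcholine receptor gene acr-18, had the highest signal of them, 95.9, with 21.9 in replicate 1 and 69.1 in replicate 2. K02D7.t1 (Asp), which overlaps an exon of grl-26, had 73.4, with 20.3 and 49.97. The serine genes F42A10.t1 and F42A10.t2 shared a ranked peak of 70.2 with unnumbered replicate signals of 13.0 and 57.4 (35.2 ± 31.4, SD, n = 2). K07C10.t1 (Lys), in an intron of the patched-related gene ptr-13, had 72.4, with 36.5 in replicate 1 and 27.9 in replicate 2 and a score of 795, the closest of these 4 loci to the lowest conservative score of 830.

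Of the 47 genes without a ranked summit, 26 had no peak in either replicate's own ranked list, 11 had one in replicate 1 and 14 in replicate 2. The B box letters were present in 42 of the 47 (89.4%, 76.9 to 96.5), against 120 of the 123 genes with a conservative summit (97.6%, 93.0 to 99.5).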

How the data were processed

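Peaks were taken from 7 lists that the authors deposited on ce11, the same assembly as WBcel235. The authors' IDR score ranks how reproducible a peak is, is capped at 1000, and was at least 830 in the conservative list. Signal is the value of the peak caller, deposited by the authors without a stated reference. Per the labels chromatin was sonicated to 200 to 800 bp. Lists were derived from alignments and a control file, per the submitters' notes with the files. Neither aligner, peak caller nor read depth was given in the sources used here.

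Gene models were Ensembl release 115, and isotypes and sequence RefSeq, which gave an isotype for 334 of 336 genes. A summit counted within 500 bp of a gene, and the strongest peak gave a gene's signal. Replicate values came from each replicate's own list. The ranked list of both replicates also holds signals of 2 peak sets without replicate numbers. In the first, 28441 of 48276 values match peaks of replicate 1 and 0 of replicate 2, and in the second 29471 match replicate 2 and 0 replicate 1. A further 6 such columns were not used. Intervals are exact Clopper-Pearson at 95%. Fisher's exact test (2-sided, threshold 0.05) was applied to 3 comparisons with Benjamini-Hochberg adjustment. With 1 group of 2 libraries no test over samples was possible.

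Sequences on chromosome I, or with an identical copy there, are not printed. Named were the tRNA genes of the 12 loci with the highest conservative signals, the highest on each autosome, the 6 loci with the most genes, the 4 strongest loci under the threshold, and the 4 hosts with the most tRNA genes, ties going to the higher ranked signal. Members and lists were chosen with earlier results of these data known. Alternatives comprised another thresholded list, each replicate alone, a score of 1000, windows of 200 and 1000 bp, any overlap, 1 peak per pair of replicate peaks, genes without an identical copy, single genes, and the nearest peak. Counting and tests were tested on simulated data. Python 3.11.15, pandas 2.3.3, numpy 2.4.6 and scipy 1.17.1 were used.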

Additional observations from a re-analysis of the deposited data

How the results depend on the processing

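The share of autosomal tRNA genes with a conservative summit, 36.6%, was 26.8% with a score of 1000 only, 23.5% among genes without an identical copy, and 8.93% to 19.9% with 1 replicate left out. It stayed within its interval under the other 5 alternatives. The odds ratio of autosomal against X loci was below 1 and called under every alternative but genes without an identical copy, where it was 0.70 and not called. The share of autosomal summits inside a tRNA gene, 66.4%, was 72.4% to 82.1% with 1 replicate left out and 61.9% among genes without an identical copy, and in these settings it was above the share on X, not below it, with no call. The odds ratio inside against outside a protein-coding gene was 1.05 to 1.08 with 1 replicate left out, against 0.89, with no call. The median signal, 82.9, was 89.4 with a score of 1000 only and 50.9 to 55.0 with 1 replicate left out, whose lists hold signals of 1 replicate. The median summit position, 22 bp, was 20 bp with the other thresholded list, 23.5 bp with a score of 1000, 21 bp with 1000 bp on both sides, 24 bp among genes without an identical copy, and 21.5 to 22 bp with 1 replicate left out. Where not stated, the cause was not tested. No paired analysis was possible because there was 1 group. Read depth was unknown, so a missing peak does not show that NHR-41 is absent from a gene.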

Other observations

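The selenocysteine tRNA gene K11H12.t1 on chromosome IV had no ranked summit, and a peak of 18.3 in replicate 2's own ranked list. The 2 autosomal genes with no isotype in RefSeq, DY3.t2 and C08E8.t3, also had no ranked summit. DY3.t2 had no peak in either replicate's own ranked list, and C08E8.t3 had one of 16.4 in replicate 1. Among autosomal tRNA genes of 2 exons, 6 of 17 (35.3%, 14.2 to 61.7) had a conservative summit, beside 117 of 319 genes of 1 exon (36.7%, 31.4 to 42.2).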
